A study of Homo sapiens with 10 samples.

Results

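Messenger RNA levels of 9 genes for cell surface antigens and drug targets of prostate cancer were followed in LNCaP-C4-2 cells with altered CPT1A, the mitochondrial enzyme that starts the import of long-chain fatty acids for oxidation. The 9 genes were chosen by name (FOLH1, STEAP1, STEAP2, TMPRSS2, SLC45A3, TRPM8, PSCA, CD276 and TMEFF2), and they are 9 of 57353 gene symbols in the count table. All 9 were among the 17230 genes that passed the expression filter. LNCaP-C4-2 is a human prostate cancer line that grows without androgen. Its cells carried a control shRNA that targets no gene (NT, 2 samples), an shRNA that lowers CPT1A (KD, 3 samples), an empty lentivirus (EV, 2 samples) or a lentivirus with the CPT1A coding sequence (OE, 3 samples). All lines were kept in RPMI with 10% serum. The labels give puromycin at 1 µg/mL for the shRNA lines and blasticidin at 5 µg/mL for the lentiviral expression lines, so KD and OE each have a control under the same drug, while EV and NT differ in vector and drug. Neither the labels nor the study's methods mention separate transductions, and p-values measure only the spread between samples of 1 line of each kind.

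Depth was 23555205 to 28615770 counts per sample. CPT1A was at 81.2 to 86.4 CPM (gene counts relative to library size, scaled by TMM) in KD against 262 and 265 in NT, and at 861 to 914 CPM in OE against 318 and 326 in EV. All 10 prostate luminal markers in the table were tested, and their summed level was 5041 to 10723 CPM. Of the defining markers of other cells, KRT5 (basal), CHGB (neuroendocrine), COL1A2 (stroma), CD3E (blood) and PECAM1 (endothelium) had 0 counts in every sample. Other genes of these lists were present at low levels, and 3 of 6 basal, 2 of 8 neuroendocrine, 4 of 7 stromal, 0 of 6 blood and 1 of 4 endothelial markers passed the filter. Their summed levels moved with the lines. The neuroendocrine sum was 41.9 to 47.7 CPM in OE and 15.4 to 27.96 in the other lines, and the stromal sum was 19.9 to 21.9 CPM in KD against 11.998 to 13.6 in NT, 11.6 to 12.7 in EV and 14.9 to 17.5 in OE, with 2 of its 4 tested genes called higher in KD than in NT. The basal sum was highest in NT (12.9 to 13.3 CPM, against 6.55 to 10.1 elsewhere), the endothelial sum highest in OE (8.74 to 9.46, against 6.28 to 7.97), and the blood sum at most 0.487 CPM. Apart from blood, these sums came mostly from 1 gene each, so a sum alone does not show a list moving as a whole. By line means these genes were ITGB4 (basal, 11.9 CPM in NT), VWF (endothelial, 9.05 in OE), ENO2 (neuroendocrine, 41.4 in OE) and COL1A1 (stromal, 15.1 in KD). All 4 tested stromal genes were higher in KD than in NT (COL1A1 log2 0.63, COL3A1 1.23, PDGFRB 1.11 and ACTA2 0.64). Both tested neuroendocrine genes were higher in OE than in EV (ENO2 log2 1.12, called, and SYP log2 0.57, not called). NGFR went with the basal sum. KRT14 went against it, at 0.408 CPM in NT and 1.61 in KD, where it was called higher. The summed luminal level was not even across the lines, at 5041 to 5238 CPM in NT, 7829 to 8427 in KD, 6884 to 7183 in EV and 10340 to 10723 in OE. KLK3 was its largest part, at means of 2466 CPM in NT and 5811 in OE. The part of these marker levels in the results was not tested. In RNA from whole cultures, fewer cells with a transcript and less of it per cell cannot be told apart.

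Many surface antigens of prostate cancer, though not all, are proteins that luminal cells display at much higher levels than most other tissues, which is why antibodies, radioligands and engineered T cells are aimed at them. Many of their genes, among them TMPRSS2, SLC45A3 and TRPM8, are induced by androgen, whereas FOLH1 is known to be repressed by androgen. Methylation of CG pairs near a start site is known to silence genes, and TMEFF2 is one of the genes often methylated there in tumours.

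The start sites of 5 members are shown because their genes carried the widest changes (SLC45A3, TRPM8 and TMEFF2) or lie side by side and moved together (STEAP1 and STEAP2). Each line holds the 250 bases before a RefSeq start site on GRCh38.p14, read 5′ to 3′ on the gene's strand, with CG pairs in capitals. The windows are chr1:205680510-205680759 on the minus strand, chr2:233917123-233917372 on the plus strand, chr2:192194934-192195183 on the minus strand, chr7:90154219-90154468 on the plus strand and chr7:90211490-90211739 on the plus strand, in the order of the lines.
SLC45A3: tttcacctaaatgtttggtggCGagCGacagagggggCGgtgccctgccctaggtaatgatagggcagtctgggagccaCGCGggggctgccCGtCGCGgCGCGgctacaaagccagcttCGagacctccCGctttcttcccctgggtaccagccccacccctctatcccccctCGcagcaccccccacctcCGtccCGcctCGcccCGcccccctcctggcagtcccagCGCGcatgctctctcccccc
TRPM8: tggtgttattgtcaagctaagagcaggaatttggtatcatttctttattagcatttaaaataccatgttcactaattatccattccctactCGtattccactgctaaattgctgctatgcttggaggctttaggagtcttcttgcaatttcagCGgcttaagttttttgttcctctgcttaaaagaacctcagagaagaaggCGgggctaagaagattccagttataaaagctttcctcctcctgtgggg
TMEFF2: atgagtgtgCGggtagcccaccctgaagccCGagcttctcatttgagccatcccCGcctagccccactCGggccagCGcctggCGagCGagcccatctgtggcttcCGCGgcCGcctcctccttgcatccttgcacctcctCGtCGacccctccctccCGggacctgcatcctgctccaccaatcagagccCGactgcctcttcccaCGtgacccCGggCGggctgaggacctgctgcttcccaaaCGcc
STEAP1: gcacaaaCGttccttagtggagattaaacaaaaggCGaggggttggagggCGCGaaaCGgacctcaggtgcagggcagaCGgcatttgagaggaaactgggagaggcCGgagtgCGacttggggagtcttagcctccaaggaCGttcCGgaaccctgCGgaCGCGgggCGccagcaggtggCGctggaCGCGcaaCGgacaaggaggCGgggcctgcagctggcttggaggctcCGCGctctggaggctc
STEAP2: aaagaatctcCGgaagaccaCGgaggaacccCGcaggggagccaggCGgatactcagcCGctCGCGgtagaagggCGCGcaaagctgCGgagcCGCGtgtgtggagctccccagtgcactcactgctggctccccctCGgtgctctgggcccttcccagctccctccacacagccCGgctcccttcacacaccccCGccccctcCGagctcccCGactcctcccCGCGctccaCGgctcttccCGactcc

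The SLC45A3 window held 19 CG pairs and the TMEFF2 window 18, above the median of 11 over all 35116 windows (quartiles 3 and 23). STEAP1 and STEAP2 had 21 CG pairs each. TRPM8 differed from the others, with 3. The STEAP2 start used by RefSeq lies inside the longer span that GENCODE gives the gene. Windows were found for 6 of the 9 members, 13 windows in all, counting every start. FOLH1, TMPRSS2 and PSCA had no entry. The letters AGAACA or their reverse complement TGTTCT, the core of an androgen response element, were in 12.4% of all windows and in 1 of the 13, a later TRPM8 start. The forkhead letters TGTTTAC or GTAAACA were in 2.98% of all windows and in 1 of the 13, the other STEAP2 start. No printed window holds either string.

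Levels can be compared between genes only per length. In CPM per kilobase of merged exon, averaged over the 10 samples, FOLH1 (149) and TMPRSS2 (136.2) were highest, followed by STEAP1 (109), SLC45A3 (99.7) and STEAP2 (87.4). TRPM8 (29.3) and CD276 (23.6) were lower, PSCA was at 4.001 and TMEFF2 at 0.519. With the longest transcript as the length, TMPRSS2 (219) stood above FOLH1 (193). The order was not the same in each line, since SLC45A3 was at 33.9 CPM per kilobase in NT and at 145 in OE.

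**Figure D1:**
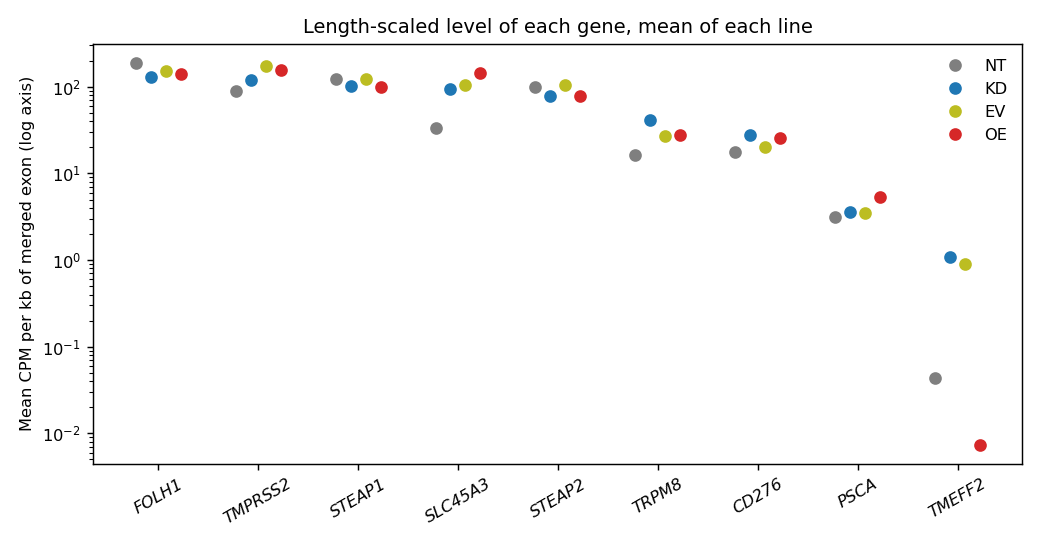
Mean CPM per kilobase of merged exon (log axis) for each of the 9 genes, with 1 point for each line (NT, KD, EV, OE). TMEFF2 spans the widest range between lines, and SLC45A3 the widest among the abundant genes.

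A gene was called at a Benjamini-Hochberg adjusted p under 0.0001 in the edgeR quasi-likelihood test over 17230 genes, and 0.05 was used to order the lines of a gene. Log2 fold changes carry the standard error (SE) of the fit. When KD was set against NT, 8 of the 9 members were called, 5 higher and 3 lower, where 29.8% of all tested genes were called. In OE against EV, 5 members were called, 2 higher and 3 lower, with a background of 22.6%. TMEFF2 passed the expression filter only through the lines where it was high, so its calls are a description. Leaving it out, 7 of 8 members were called in KD (4 higher, 3 lower) and 4 of 8 in OE (2 higher, 2 lower). Apart from PSCA and TMEFF2, every member had a mean level above at least 91.9% of tested genes. The background shares cover all tested genes and were not matched for level. The part of level in the counts of called members, here and further on, was not tested, and no trait of the group is read from them. The median log2 fold change of all genes was -0.02 in both comparisons. Called in the same direction in both were SLC45A3 and CD276 (higher) and STEAP1 and STEAP2 (lower), 4 members against 9.32% of all genes, and TMEFF2 was the 1 member called in opposite directions, as were 1.87% of all genes, a share from which nothing is read for this gene.

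**Figure D2:**
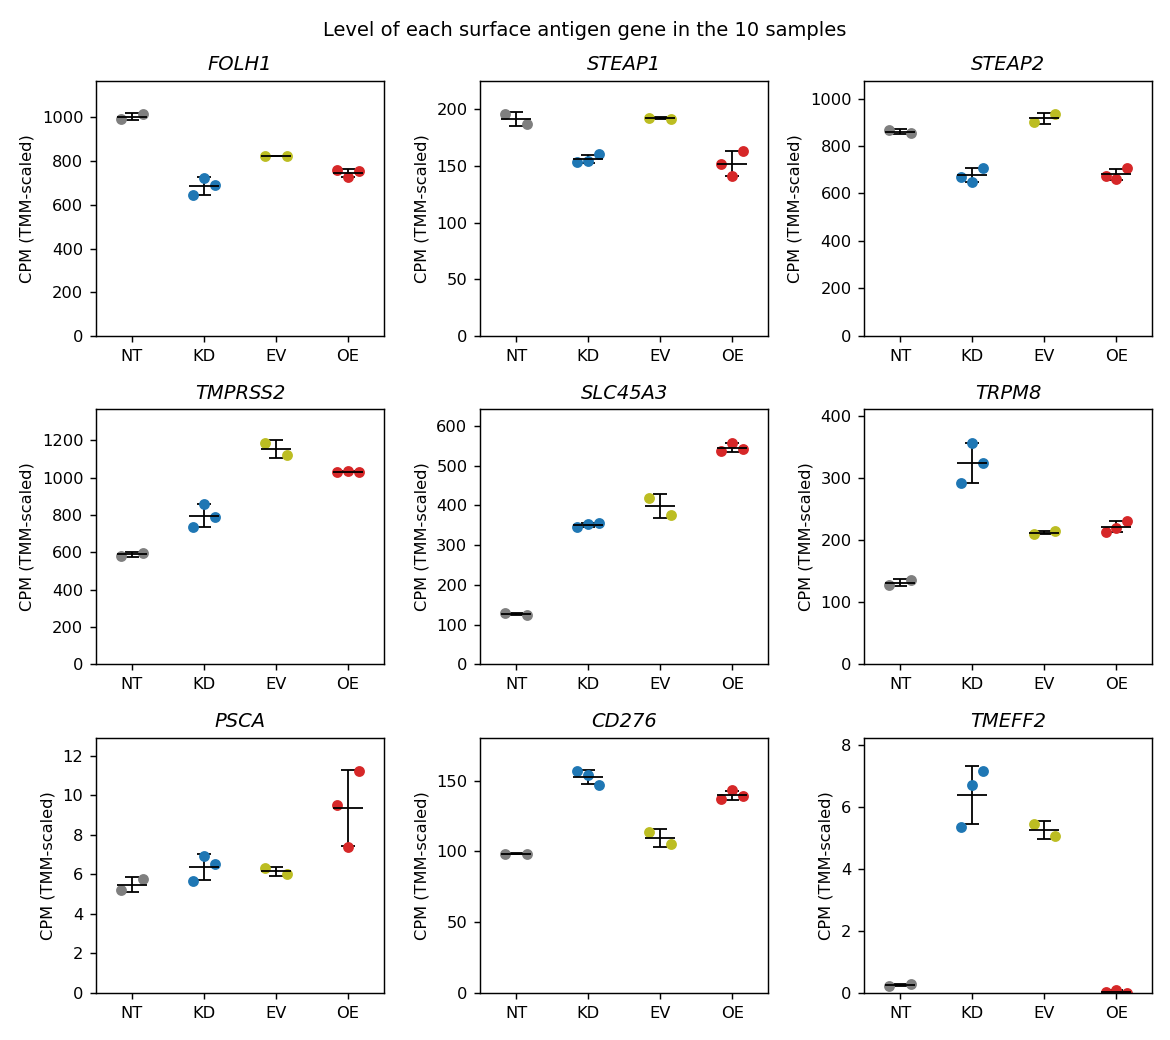
CPM (scaled by TMM) of each gene in the 10 samples, with each point a sample, horizontal bars the mean of a line and error bars the SD. NT is the lowest line for SLC45A3, TRPM8, TMPRSS2 and CD276 and the highest for FOLH1, and TMEFF2 is near 0 in NT and OE.

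FOLH1 encodes prostate-specific membrane antigen (PSMA), a zinc carboxypeptidase that cleaves glutamate from folates and from a neuropeptide, and the target of PSMA imaging and radioligand therapy. It lies on chromosome 11 (49145092 to 49208638 on GRCh38, minus strand). FOLH1 was at 992 and 1014 CPM in NT, 644, 723 and 690 in KD, 821 and 824 in EV, and 757, 726 and 757 in OE. NT was the highest line, KD the lowest, and no pair of lines overlapped. FOLH1 fell 1.46-fold in KD against NT (log2 fold change -0.55, SE 0.049, adjusted p = 1.09e-10, edgeR). It was 1.10-fold lower in OE than in EV, a difference that was not called (log2 -0.14, adjusted p = 0.0177, edgeR). The 2 controls also differed, EV being lower than NT by log2 -0.29 (adjusted p = 0.00013, edgeR), short of the limit for a call, which it passed in DESeq2 (adjusted p = 3.04e-06), in limma-voom (adjusted p = 7.17e-05) and without an expression filter (adjusted p = 6.69e-06, edgeR). The interaction, which is the log2 difference between OE and EV less that between KD and NT, was 0.41 for FOLH1 (SE 0.069, adjusted p = 2.01e-05, edgeR) and was no longer called when 1 sample was left out in 5 of 10 cases (NT 1, NT 2, EV 1, EV 2 or OE 1, adjusted p = 0.00014 to 0.000496, edgeR) or when libraries were scaled by size only (log2 0.27, adjusted p = 0.000558, edgeR). Reads of the near-identical FOLH1B numbered 18 to 34 per sample, against at least 16051 for FOLH1.

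STEAP1 and STEAP2 are multi-pass heme proteins of a family named for its prostate antigen. STEAP2 reduces iron and copper, and STEAP1, the target of antibodies and engineered T cells, lacks the NADPH-binding part. The genes are neighbours on chromosome 7 on the same strand (STEAP1 at 90154456 to 90164829, STEAP2 at 90167590 to 90238137), with 2761 bases between them. STEAP1 was at 195 and 187 CPM in NT, 153, 154 and 161 in KD, 192 and 191 in EV, and 152, 141 and 163 in OE. Both controls were above every KD and OE sample, and KD and OE overlapped.

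STEAP2 was at 867 and 854 CPM in NT, 671, 650 and 708 in KD, 900 and 934 in EV, and 675, 661 and 707 in OE. As with STEAP1, the controls were above all KD and OE samples. STEAP2 fell in KD (log2 fold change -0.35, SE 0.048, adjusted p = 4.26e-07, edgeR) and in OE (log2 -0.43, SE 0.048, adjusted p = 1.99e-08, edgeR) against their controls. STEAP1 also fell in KD (log2 -0.29, SE 0.051, adjusted p = 1.67e-05, edgeR) and OE (log2 -0.34, SE 0.051, adjusted p = 3.13e-06, edgeR). The KD call of STEAP1 was lost without NT 1, NT 2 or KD 1 (adjusted p = 0.00245, 0.00021 and 0.000149, edgeR) or with library size as the only scaling (adjusted p = 0.000295, edgeR), and its OE call without EV 1 or EV 2 (adjusted p = 0.000427 and 0.000203, edgeR).

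For neither STEAP gene was the interaction called (STEAP1 log2 -0.04, 95% interval -0.19 to 0.10, and STEAP2 log2 -0.08, 95% interval -0.22 to 0.06), and these intervals bound how far the responses to KD and OE could differ. OE and KD were not told apart either, at log2 -0.04 for STEAP1 (95% interval -0.13 to 0.06) and 0.01 for STEAP2 (95% interval -0.08 to 0.10). The next gene downstream of STEAP2, CFAP69, 7037 bases on, was lower in KD than in NT by log2 -0.92 (adjusted p = 1.08e-09, edgeR) and lower in OE than in EV by log2 -0.46 (adjusted p = 0.000273, edgeR), the latter not called. An antisense transcript that overlaps both STEAP genes, STEAP2-AS1, had 6 to 19 counts per sample.

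TMPRSS2 is a serine protease anchored in the membrane, and its androgen-driven promoter is a common partner in ERG gene fusions. It lies on chromosome 21 (41464300 to 41531116, minus strand). The level was 581 and 598 CPM in NT, 738, 862 and 788 in KD, 1188 and 1120 in EV, and 1030, 1037 and 1032 in OE. The lines did not overlap and ran NT, KD, OE, EV from low to high. TMPRSS2 rose 1.35-fold in KD against NT (log2 0.43, SE 0.054, adjusted p = 7.2e-08, edgeR) and was 1.12-fold lower in OE than in EV, not called (log2 -0.16, SE 0.053, adjusted p = 0.0124, edgeR). The difference between the 2 controls was larger than either, since EV was 1.96-fold above NT (log2 0.97, SE 0.059, adjusted p = 2.05e-13, edgeR). The interaction was log2 -0.59 (adjusted p = 2.11e-07, edgeR). MX1, which overlaps TMPRSS2 on the other strand, had 53 to 75 counts per sample, against at least 15047 for TMPRSS2.

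SLC45A3, or prostein, is a prostate-enriched membrane transporter that also supplies its promoter to gene fusions. It lies on chromosome 1 (205657851 to 205680509, minus strand). SLC45A3 was at 129.3 and 124.8 CPM in NT, 346, 354 and 356 in KD, 420 and 377 in EV, and 536, 558 and 542 in OE. NT was far below the other lines and OE was the highest, with no overlap between any pair. SLC45A3 rose 2.77-fold in KD against NT (log2 1.47, SE 0.051, adjusted p = 2.59e-19, edgeR) and 1.37-fold in OE against EV (log2 0.45, SE 0.048, adjusted p = 8.43e-09, edgeR). EV was 3.14-fold above NT (log2 1.65, SE 0.055, adjusted p = 4.61e-19, edgeR). The interaction was -1.02 on the log2 scale (SE 0.069, adjusted p = 1.32e-12, edgeR). ELK4, 25840 bases downstream and known for read-through transcripts with SLC45A3, was lower in OE than in EV by log2 -0.43 (adjusted p = 2.94e-07, edgeR), so the 2 neighbours moved in opposite directions there. In the other 2 comparisons ELK4 had the same sign as SLC45A3. It was higher in EV than in NT by log2 0.35 (adjusted p = 6.08e-05, edgeR) and in KD than in NT by log2 0.25, not called (adjusted p = 0.000336, edgeR).

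TRPM8 is a cation channel opened by cold and menthol that luminal prostate cells express under androgen control. It lies on chromosome 2 (233917373 to 234019522, plus strand). TRPM8 was at 127.2 and 135.1 CPM in NT, 292, 356 and 325 in KD, 210 and 214 in EV, and 213, 220 and 231 in OE. KD was above and NT below all other samples, and EV and OE overlapped. TRPM8 rose 2.47-fold in KD against NT (log2 1.31, SE 0.064, adjusted p = 4.84e-14, edgeR). In OE against EV the log2 difference was 0.06 (95% interval -0.06 to 0.19, adjusted p = 0.406, edgeR). The interaction was log2 -1.24 (SE 0.087, adjusted p = 8.99e-11, edgeR), and EV was 1.62-fold above NT (log2 0.69, SE 0.068, adjusted p = 5.33e-08, edgeR).

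CD276, or B7-H3, is an immune checkpoint protein of the B7 family and the target of antibody-drug conjugates. It lies on chromosome 15 (73683966 to 73714514, plus strand). CD276 was at 98.0 and 98.4 CPM in NT, 157, 154 and 147 in KD, 114 and 105 in EV, and 136.9, 143.1 and 138.8 in OE. Both altered lines were above both controls, and the order NT, EV, OE, KD had no overlap. CD276 rose 1.55-fold in KD (log2 0.63, SE 0.050, adjusted p = 8.98e-12, edgeR) and 1.28-fold in OE (log2 0.35, SE 0.050, adjusted p = 9.19e-07, edgeR). The OE call was lost without EV 2 (adjusted p = 0.000546, edgeR). The interaction of -0.28 on the log2 scale was not called (adjusted p = 0.00151, edgeR), and EV and NT differed by log2 0.16 (adjusted p = 0.028, edgeR).

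PSCA is a small lipid-anchored protein of the Ly6 family, on chromosome 8 (142670308 to 142682725, plus strand). Its level was low, with at most 290 counts in any sample. PSCA was at 5.21 and 5.76 CPM in NT, 5.67, 6.94 and 6.50 in KD, 6.318 and 6.004 in EV, and 9.53, 7.38 and 11.2 in OE. OE was above all other samples, KD overlapped both controls, and NT, EV and KD were not told apart as neighbours in the order of levels. The difference between OE and EV (1.53-fold, log2 0.61, SE 0.14, adjusted p = 0.000629, edgeR) was not called. It was called without OE 2 (adjusted p = 2.57e-05, edgeR) and when no gene was filtered out (adjusted p = 5.19e-06, edgeR). In KD against NT the log2 difference was 0.22 (95% interval -0.09 to 0.52, adjusted p = 0.217, edgeR). JRK overlaps PSCA on the other strand and had 1207 to 1520 counts per sample, and since the strand used in counting is not stated, reads of the 2 genes may not be separable.

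TMEFF2 is a transmembrane protein with follistatin and EGF-like parts, studied as an antibody target and as a growth suppressor in prostate cells. The gene lies on chromosome 2 (191949043 to 192194933, minus strand). TMEFF2 had 6 and 7 counts in NT, 140, 170 and 216 in KD, 140 and 125 in EV, and 1, 2 and 0 in OE. In CPM these were 0.226 and 0.278 in NT, 5.36, 6.71 and 7.16 in KD, 5.46 and 5.07 in EV, and 0.0399, 0.0905 and 0 in OE. The lines formed a low pair, NT and OE, and a high pair, KD and EV. TMEFF2 passed the expression filter only through the high pair.

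By summed counts, TMEFF2 was 25.6 times as high in KD as in NT (95% interval 14.9 to 48.5, 526 against 13 counts) and 128 times as high in EV as in OE (95% interval 43.4 to 626, 265 against 3 counts), with intervals that cover counting error only. EV was 20.9 times NT (95% interval 12.04 to 39.87). These ratios are a description. They passed the limit for a call in the fit, but no p-value is given, since a gene that enters the test only through its high lines had to differ, and no size is given for the interaction, which rests on 3 counts in OE. KD and EV, at a ratio of 1.22 (95% interval 1.05 to 1.42), were not told apart when the spread between samples was included (adjusted p = 0.119, edgeR). NT was 6.12 times OE (95% interval 1.68 to 33.5), a difference that was not called (adjusted p = 0.00687, edgeR).

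TMEFF2 shared its up, up and down calls (KD above NT, EV above NT, OE below EV) with 74 other tested genes, 75 in all. Since TMEFF2 entered the test only through its high lines, its place among the 75 is a description and nothing is read from it. MMP16, named after its values were seen, passed 3 log2 units in each of the 3 comparisons, as TMEFF2 did. MMP16, a membrane-bound metalloproteinase, was at means of 12.4 CPM in KD and 27.9 in EV, against 1.17 in NT and 1.30 in OE.

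**Figure D3:**
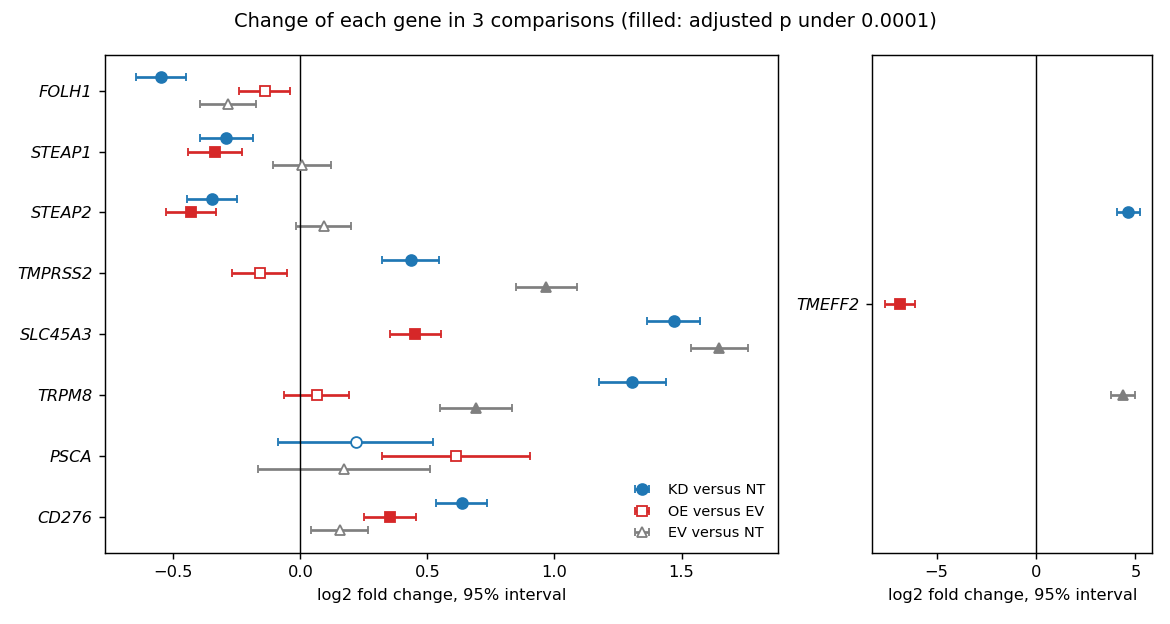
Log2 fold change with 95% interval of each gene in KD against NT, OE against EV and EV against NT, filled where the adjusted p was under 0.0001. TMEFF2 has its own panel and scale. FOLH1, STEAP1 and STEAP2 lie left of 0 in the KD and OE comparisons, and SLC45A3 and CD276 lie right of 0 in both.

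The comparison between the 2 control lines shows how much of these levels differed without a change of CPT1A by design. CPT1A itself was 1.22-fold higher in EV than in NT, and this was called (log2 0.29, SE 0.051, adjusted p = 5.88e-05, edgeR). In EV against NT, 4 members were called, all higher, against 8.89% of all genes (3 of 8 without TMEFF2). FOLH1, lower in EV, was called as well by DESeq2 and limma-voom. The 4 were SLC45A3, TMPRSS2, TRPM8 and TMEFF2, which were also called higher in KD against NT, and both comparisons share the NT samples. When KD was set against EV instead, 6 members were called (18.0% of all genes), and only TRPM8 (log2 0.61) and CD276 (log2 0.48) were higher in KD. SLC45A3 was then lower in KD by log2 -0.18, not called (adjusted p = 0.00267, edgeR), and TMPRSS2 by log2 -0.54 (adjusted p = 1.8e-09, edgeR), the reverse of their sign against NT. The 3 members that were lower in KD than in NT were lower than in EV as well, FOLH1 by log2 -0.26, STEAP1 by log2 -0.30 and STEAP2 by log2 -0.44.

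In OE against NT, 8 members were called (37.6% of all genes), 5 higher and 3 lower. SLC45A3 was 4.29-fold, TMPRSS2 1.75-fold and PSCA 1.72-fold above NT, and of these TMPRSS2 was the 1 that lay below EV. For OE against KD without the controls, 4 members were called (32.4% of all genes), or 3 of 8 without TMEFF2. SLC45A3 (log2 0.63) and TMPRSS2 (log2 0.38) were higher in OE, and TRPM8 (log2 -0.55) and TMEFF2 were lower. The interaction was called for 5 members (16.7% of all genes), or 4 of 8 without TMEFF2, 1 positive (FOLH1) and 4 negative (TMPRSS2, SLC45A3, TRPM8 and TMEFF2).

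**Figure D4:**
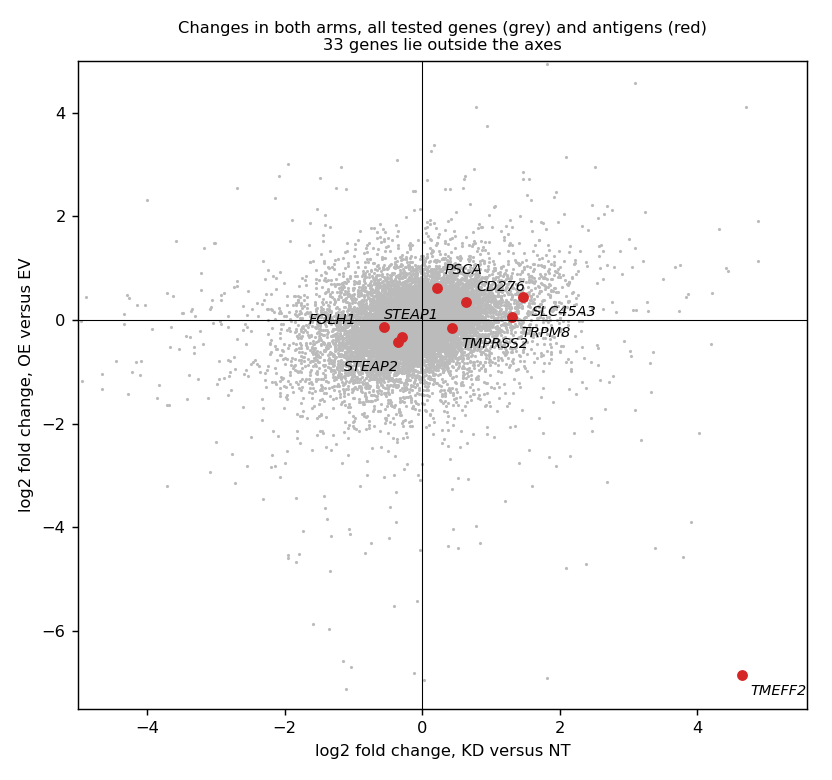
Log2 fold change in KD against NT (x axis) and in OE against EV (y axis) for the tested genes (grey) and the 9 members (red), with 33 genes beyond the axes. SLC45A3 and CD276 lie upper right, STEAP1 and STEAP2 lower left, and TMEFF2 alone at the lower right corner.

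The other genes of each member's surroundings were described by lists and by position. Of 11 androgen response genes that are no members, 10 were called higher and 1 (KLK4) lower in KD against NT, with a median log2 fold change of 0.85 against -0.02 for all genes. Against EV, OE had 3 of them higher and 4 lower, and their median log2 fold change was -0.19. In EV against NT, 9 were higher and 0 lower, where 5.89% of all tested genes were called higher and 3.01% lower. FKBP5, a chaperone induced by androgen, was lowest in NT, at a mean of 97.8 CPM against 179 in OE, 275 in EV and 359 in KD, as SLC45A3, TMPRSS2 and TRPM8 were. HOXB13, a homeobox factor of the prostate lineage, rose in KD against NT by log2 0.35 and in OE against EV by log2 0.72.

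Over all tested genes, 16.8% were called higher and 13.0% lower in KD against NT, and 12.2% and 10.4% in OE against EV. The androgen response list and the lists that follow are to be read against these shares. Among 25 tested relatives of the members, 7 were higher and 2 lower in KD against NT, and 4 were higher and 2 lower in OE against EV. TRPM4, a calcium-activated channel related to TRPM8, rose in OE (log2 1.20, adjusted p = 1.12e-16, edgeR), where TRPM8 was not called. STEAP3, a reductase of the same family, rose in KD (log2 0.99, adjusted p = 7.07e-14, edgeR), the opposite sign to STEAP1 and STEAP2. STEAP4 was at 0.933 CPM in NT and at 3.16 to 3.72 CPM in the other lines. TMPRSS13, another membrane serine protease, fell in KD (log2 -1.41, adjusted p = 4e-13, edgeR), where TMPRSS2 rose.

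Of 36 tested genes for other surface antigens and targets, 13 were higher and 4 lower in KD against NT, and 12 were higher and 6 lower in OE against EV. IGF1R, the receptor of insulin-like growth factor, was lowest in NT, with a mean of 45.7 CPM, against 139.02 in KD, 154 in OE and 205 in EV. SLC3A2, the heavy chain of amino acid transporters, was at means of 269 CPM (NT), 146 (KD), 269 (EV) and 384 (OE). ENPP1, a nucleotide pyrophosphatase, rose in KD (log2 0.54) and fell in OE (log2 -0.47). Of the 9 tested genes of iron and copper handling beside STEAP1 and STEAP2, 2 were higher and 3 lower in KD against NT. FTH1, the heavy chain of the iron store ferritin, fell in KD by log2 -1.33 (adjusted p = 1.27e-18, edgeR).

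In OE against EV, around 3 members picked from the 9 after their values were seen, the calls of other genes lay mostly on the side of the member. Because of that choice the agreement is a description, and PSCA, 1 of the 3, was itself not called. Of the 9 tested protein-coding genes within 2 Mb of TMEFF2, 7 were called lower and 0 higher, and within 10 Mb 18 of 62 were lower and 1 higher (median log2 -0.32). NABP1, 207946 bases away on 1 side, fell by log2 -0.83, and SLC39A10, the nearest on the other side at 3381044 bases, fell by log2 -0.48. Within 2 Mb of PSCA 28 of 66 were higher and 4 lower (median log2 0.25), and within 2 Mb of STEAP2 4 of 12 were lower and 0 higher, members not counted. Around SLC45A3 the calls within 2 Mb lay on the other side, with 5 of 38 lower and 1 higher. Within 10 Mb this was also so for CD276 (17 of 147 higher, 24 lower) and FOLH1 (8 of 68 higher, 5 lower). Calls around TMPRSS2 and STEAP1 lay mostly on the side of the member at that distance. FOLH1 (log2 -0.14) and TMPRSS2 (log2 -0.16) were themselves not called in OE against EV. Their side is only the sign of the estimate. TRPM8 had no side, since OE and EV were not told apart for it (log2 0.06, adjusted p = 0.406, edgeR). Within 10 Mb of TRPM8, 9 of 82 were higher and 4 lower. The other comparisons did not follow the same pattern. In KD against NT, where TMEFF2 was higher, 9 of its 62 neighbours within 10 Mb were higher and 12 lower, NABP1 among the lower (log2 -0.66), and in EV against NT 1 was higher and 5 lower. Around STEAP2, which fell in KD, 4 of the 12 were higher and 2 lower in KD, and around PSCA, not called in KD, 19 of the 66 were higher and 10 lower. A part of DNA copy number in these results was not tested.

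**Figure D5:**
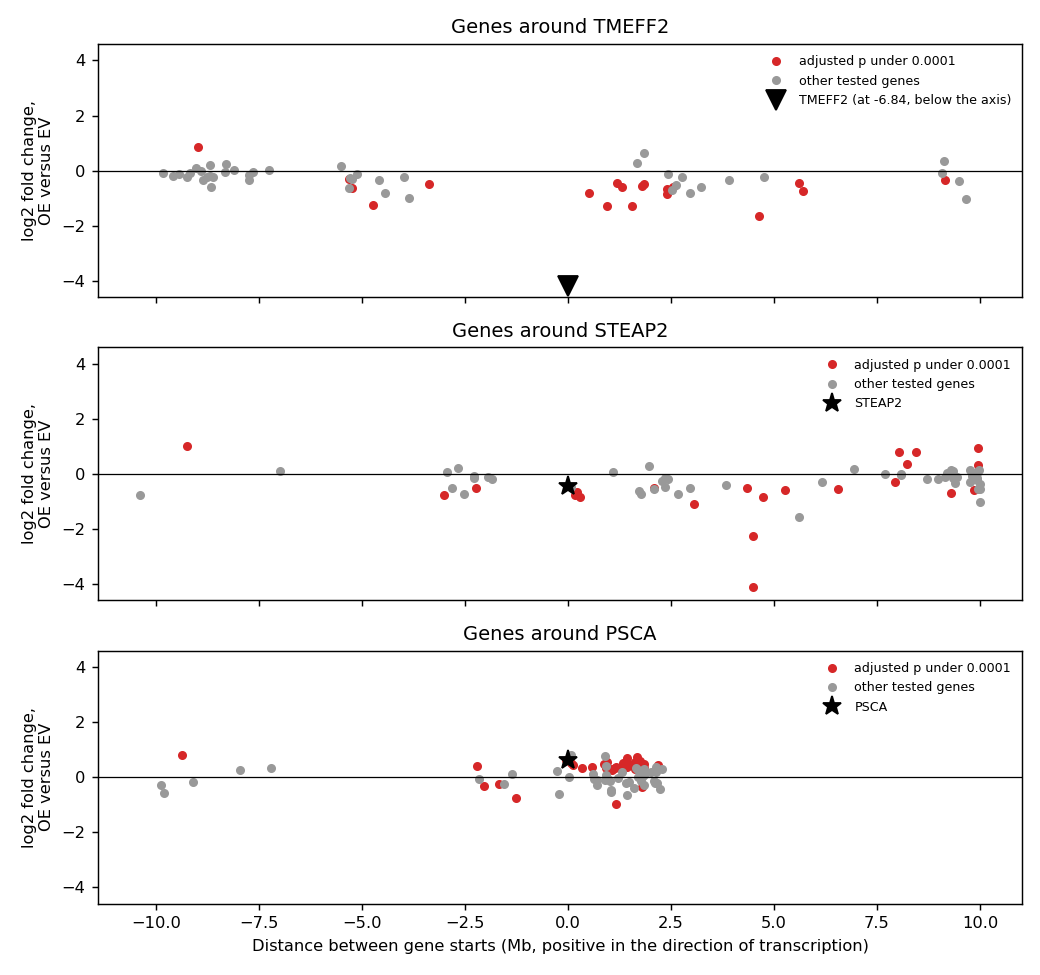
Log2 fold change in OE against EV of the tested protein-coding genes around TMEFF2, STEAP2 and PSCA, by the distance between gene starts in Mb. Red points had an adjusted p under 0.0001. Most red points around TMEFF2 lie below 0, and most around PSCA lie above 0.

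The genes most like each member were found by Pearson's r of log2 CPM over the 10 samples, among 12602 genes with an average log2 CPM of at least 1. The samples form 4 lines, so r here describes mainly the order and spacing of the line levels, and it is given as a description. STEAP2 was closest to ASAH1, the lysosomal acid ceramidase (r = 0.9983), CD276 to PKM, the glycolytic pyruvate kinase (r = 0.9959), and SLC45A3 to CSGALNACT1, a chondroitin sulfate enzyme (r = 0.9955). TMPRSS2 followed MLYCD, the malonyl-CoA decarboxylase (r = 0.9899). FOLH1 was closest to RPS7 (r = 0.9873) and RPS27 (r = 0.9869), both proteins of the small ribosomal subunit. TRPM8 was closest to WSB2 (r = 0.9882), STEAP1 to CCDC9B (r = 0.9784) and TMEFF2 to TNFRSF19 (r = 0.9829), a receptor of the tumour necrosis factor family. For PSCA the nearest was PIP4P2 (r = 0.9328), the lowest of the 9. None of the genes named here was among the 3 most like its member when r was taken over the 4 line means. Their r over the line means was still 0.9592 or more, so being nearest depended on the choice of r.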

How the data were processed

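RNA was sequenced from 10 samples of LNCaP-C4-2 lines. The authors removed adapters with BBDuk, mapped read pairs with STAR 2.6.0a to the Ensembl human transcriptome (hg38) and counted reads per gene. As deposited, the values are raw counts for 57353 symbols, 24626 of them at 0 in every sample, in 10 columns. Whether strand was used, and how reads with several matches were counted, is not given in the sources used here.

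Groups and replicate numbers came from the sample labels. Counts were filtered with filterByExpr (17230 genes kept) and scaled by TMM. The test was the robust quasi-likelihood F test of edgeR 4.0.16 (run in R 4.3.3) with 1 mean per line over all 10 samples and Benjamini-Hochberg adjustment over the tested genes of each comparison. A call needs an adjusted p under 0.0001, the limit the study used. SE is the absolute log2 fold change from the unshrunk coefficients, divided by the square root of F. The log2 fold changes given are edgeR's own, which are shrunk slightly, and the intervals are centred on them. Intervals are 95%. Those of the TMEFF2 ratios are exact binomial intervals on summed counts. A floor of 3 counts was 0.0995 to 0.136 CPM per sample, and the common biological coefficient of variation was 0.0446. Samples of a line differed by more than counting noise (chi-square per degree of freedom 2.08 to 7.29), and none was counted as a repeat of another.

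The members, lists and comparisons were chosen with earlier results of these data known. The genes that could be named besides the members and CPT1A, not all of them discussed, were the 3 genes most like each member, the nearest tested neighbours and the list genes with the 3 smallest interaction p-values, or list genes that a result turns on. Positions are from GENCODE v44 on GRCh38, matched by symbol, and sequences from RefSeq. Same-numbered samples did not deviate together (13 pairs, mean r -0.003, range -0.044 to 0.078; other pairs, 24, mean 0.002). Alternatives were DESeq2 1.42.0, limma-voom (limma 3.58.1), other scaling, filters and limits, each arm alone, the replicate block, leaving out each sample, the longest transcript as length and, added after seeing the data, the fit without the robust setting. The test was checked on simulated data. Some genes are not reported here.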

Additional observations from a re-analysis of the deposited data

How the results depend on the processing

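Of 868 values of members under alternatives, 819 kept their direction and side of the limit. At an adjusted p under 0.05, 9894 genes were called in KD against NT, 8977 in OE against EV, 7628 for the interaction, 5848 in EV against NT and 10328 in OE against KD, and 8 members in OE against EV and 7 in OE against KD. Without a filter, 2324 genes were called in EV against NT. Leaving out 1 sample gave 3248 to 5436 genes in KD against NT (fewest without NT 1), 1961 to 5043 in OE against EV (fewest without EV 2, with 2290 without EV 1) and 621 to 2523 in EV against NT (637 without NT 1, 702 without NT 2, 621 without EV 1, 751 without EV 2 and 2523 without KD 2). Members called in OE against EV then numbered 3 to 6, with 3 without EV 2.

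Scaling by library size only moved the median log2 fold change of all genes to -0.12 in OE against EV and to -0.15 for the interaction and OE against KD. It gave 1338 of 3523 calls as higher in OE against EV (2104 of 3895 with TMM), 779 of 3044 for the interaction (1259 of 2878) and 1765 of 5491 in OE against KD (2757 of 5578). It reversed TRPM8 in OE against EV (-0.034) and FOLH1 (-0.0067) and STEAP2 (-0.12) in OE against KD, ended the calls of STEAP1 in KD against NT (adjusted p = 0.000295, edgeR) and of FOLH1 in the interaction (0.27, adjusted p = 0.000558, edgeR), and brought calls for FOLH1 (-0.24) and TMPRSS2 (-0.26) in OE against EV. A filter of 10 counts in every sample gave STEAP1 -0.0072 in EV against NT and removed TMEFF2. Without 1 sample, STEAP1 ranged from -0.097 to 0.0062 in the interaction, -0.027 to 0.041 in EV against NT and -0.092 to 0.011 in OE against KD, and STEAP2 from -0.019 to 0.046 in OE against KD. The causes were not tested.

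With a replicate block, 5336, 4382, 3260, 1932 and 5997 genes were called in the order above. The block changed 1 call of a member, FOLH1 in EV against NT (-0.29, adjusted p = 3.35e-05, edgeR), which DESeq2, limma-voom, no filter and library size also called. Precision is limited by 2 or 3 samples a line and, for TMEFF2 and PSCA, by counts.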
